A study of Mus musculus with 8 samples.

Results

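Interferon-stimulated genes were represented by 9 named genes, Ifit1, Ifit2, Ifit3, Isg15, Irf7, Oasl2, Usp18, Rsad2 and Mx1, which were taken by symbol out of the 37979 genes in the expression table. All 9 genes had FPKM (a read abundance scaled to transcript length and library size) above 0 in at least 1 library and were among the 27414 genes tested. Levels were measured by bulk RNAseq in 4 libraries of pericytes (PDGFRβ+tdTomato- cells) and 4 libraries of SMCs (PDGFRβ+tdTomato+ cells). Both cell populations were sorted from hindlimb skeletal muscles of untreated Ai14+/-;SM22α-Cre+ mice of both sexes at an age of 3 to 4 months. In these mice the SM22α promoter drives Cre recombinase, which permanently switches on tdTomato, so a cell is tdTomato+ if it or a precursor used that promoter. The gate was set to exclude CD31+ endothelial cells, CD45+ hematopoietic cells and dead cells, and several sorts were pooled for each library.

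Interferons are secreted proteins that warn cells of viral infection. Type I interferons bind the receptor made of IFNAR1 and IFNAR2, and the kinases JAK1 and TYK2 then activate the transcription factor complex ISGF3, which binds a promoter element called ISRE and switches on many antiviral genes. Interferon gamma uses another receptor and acts mainly through an element called GAS. Many cells keep a low level of these antiviral genes without infection.

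The promoters of the genes were searched for both elements, because the genes are known as a group that ISGF3 controls. RefSeq promoter windows (assembly GRCm38.p6, 300 bases each, most of them before the transcription start) were found for 7 of the 9 genes, with 2 windows for Ifit2. Each window also matched NCBI Build 37, the build of the expression table, base for base, and positions are given in that build. The ISRE core was searched as GAAA, any 2 bases and GAAA again, on both strands, and matches may overlap. It occurred in the windows of Ifit1, Ifit3, Isg15 and Rsad2, and in 3.44% of all 32851 RefSeq windows. GAS was searched as TTCNNNGAA and occurred in 1 window of Ifit2 and in 8.30% of all windows. The 200 bases before the start are shown for the 4 genes with an ISRE core and, as an example of a window with no match to either element, for Irf7. The window of Oasl2 also held no match, and neither window of Ifit2 held an ISRE core, so genes with and without a match were among those higher in SMCs. Capitals mark the ISRE core.
Ifit1, chr19:34715179-34715378, plus strand: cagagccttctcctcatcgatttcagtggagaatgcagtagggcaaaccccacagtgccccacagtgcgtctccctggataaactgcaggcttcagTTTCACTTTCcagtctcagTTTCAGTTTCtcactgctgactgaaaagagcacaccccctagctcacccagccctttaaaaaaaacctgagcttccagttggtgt
Ifit3, chr19:34657819-34658018, plus strand: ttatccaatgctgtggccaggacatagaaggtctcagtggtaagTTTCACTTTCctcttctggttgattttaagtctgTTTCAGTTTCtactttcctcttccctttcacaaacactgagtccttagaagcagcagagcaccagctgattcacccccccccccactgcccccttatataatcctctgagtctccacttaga
Isg15, chr4:155574928-155575127, minus strand: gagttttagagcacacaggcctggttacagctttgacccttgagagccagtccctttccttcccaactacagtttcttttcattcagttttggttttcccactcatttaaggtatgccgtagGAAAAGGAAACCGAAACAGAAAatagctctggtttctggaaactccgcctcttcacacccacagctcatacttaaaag
Rsad2, chr12:27141318-27141517, minus strand: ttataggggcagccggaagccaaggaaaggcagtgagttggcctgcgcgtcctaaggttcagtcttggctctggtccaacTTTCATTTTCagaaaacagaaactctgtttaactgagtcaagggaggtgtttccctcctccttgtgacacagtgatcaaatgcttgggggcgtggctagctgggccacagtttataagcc
Irf7, chr7:148452324-148452523, minus strand: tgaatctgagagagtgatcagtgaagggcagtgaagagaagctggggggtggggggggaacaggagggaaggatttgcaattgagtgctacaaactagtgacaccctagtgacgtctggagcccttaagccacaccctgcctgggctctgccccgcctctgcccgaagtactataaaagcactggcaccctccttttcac
Ifit1 and Ifit3 each held 2 separate matches, and the 3 matches of Isg15 overlapped. A match is a description of letters and shows no binding. Usp18 and Mx1 had no entry in the promoter table.

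**Figure D1:**
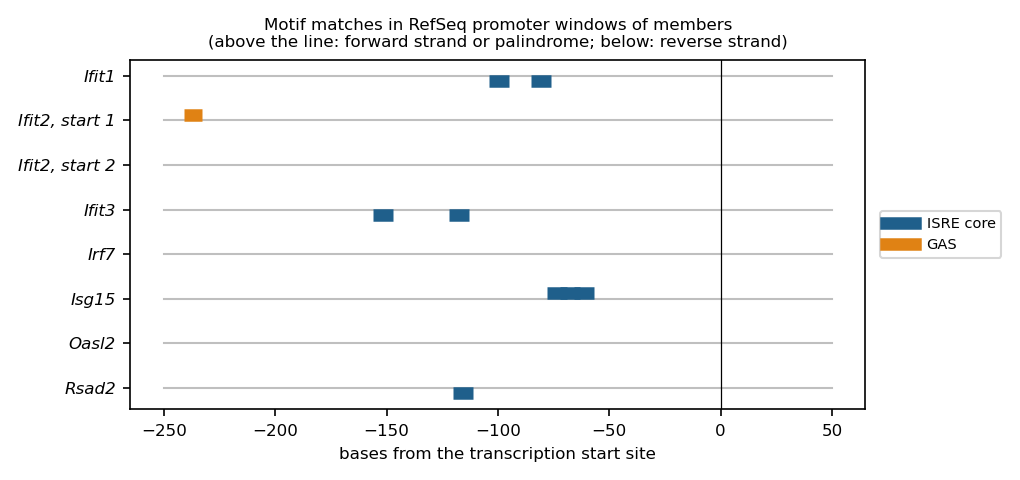
Matches to ISRE core (blue) and GAS (orange) in the RefSeq promoter windows of the genes, plotted as bases from the transcription start site, with 1 line for each window. The 3 overlapping matches of Isg15 lie from 78 to 57 bases before the start, and the 2 matches of Ifit1 lie between 104 and 76 bases before it.

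Of the 9 genes, 7 were higher in SMCs than in pericytes (limma q value below 0.05), and 0 were higher in pericytes (also 0 at an unadjusted p below 0.05). Among all genes tested, 11.2% passed the same rule with SMCs higher and 10.6% with pericytes higher. When only the 13349 genes that reached 1 FPKM in 4 or more libraries were tested, 5987 passed in either direction. The same 7 genes passed there. Ifit1, Ifit2, Ifit3, Rsad2, Usp18, Oasl2 and Isg15 were the genes higher in SMCs, with mean FPKM between 2.09 and 7.99 times that of pericytes. In these 7 genes the lowest SMC library exceeded the highest pericyte library, which held for 12.5% of all genes tested. Irf7 and Mx1 overlapped between the groups. The median log2 fold change of the 9 genes, pericytes over SMCs, was -1.30, and that of all genes tested was 0.02. With the study's stricter rule, which adds a log2 fold change above 2, Ifit1 and Ifit2 were called SMC-enriched, as were 2.66% of all genes tested, and none of the 9 was called pericyte-enriched, as were 3.24%. Ifit1 alone passed this rule without pericyte replicate 2 and without SMC replicate 2, 3 or 4, and with TPM scaling (FPKM brought to the same sum in each library) Ifit3 and Rsad2 passed it too, which made 4 genes. Each SD given is over the 4 libraries of a group (n = 4). Fold changes are on the log2(FPKM + 1) scale, which understates the change of low genes.

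**Figure D2:**
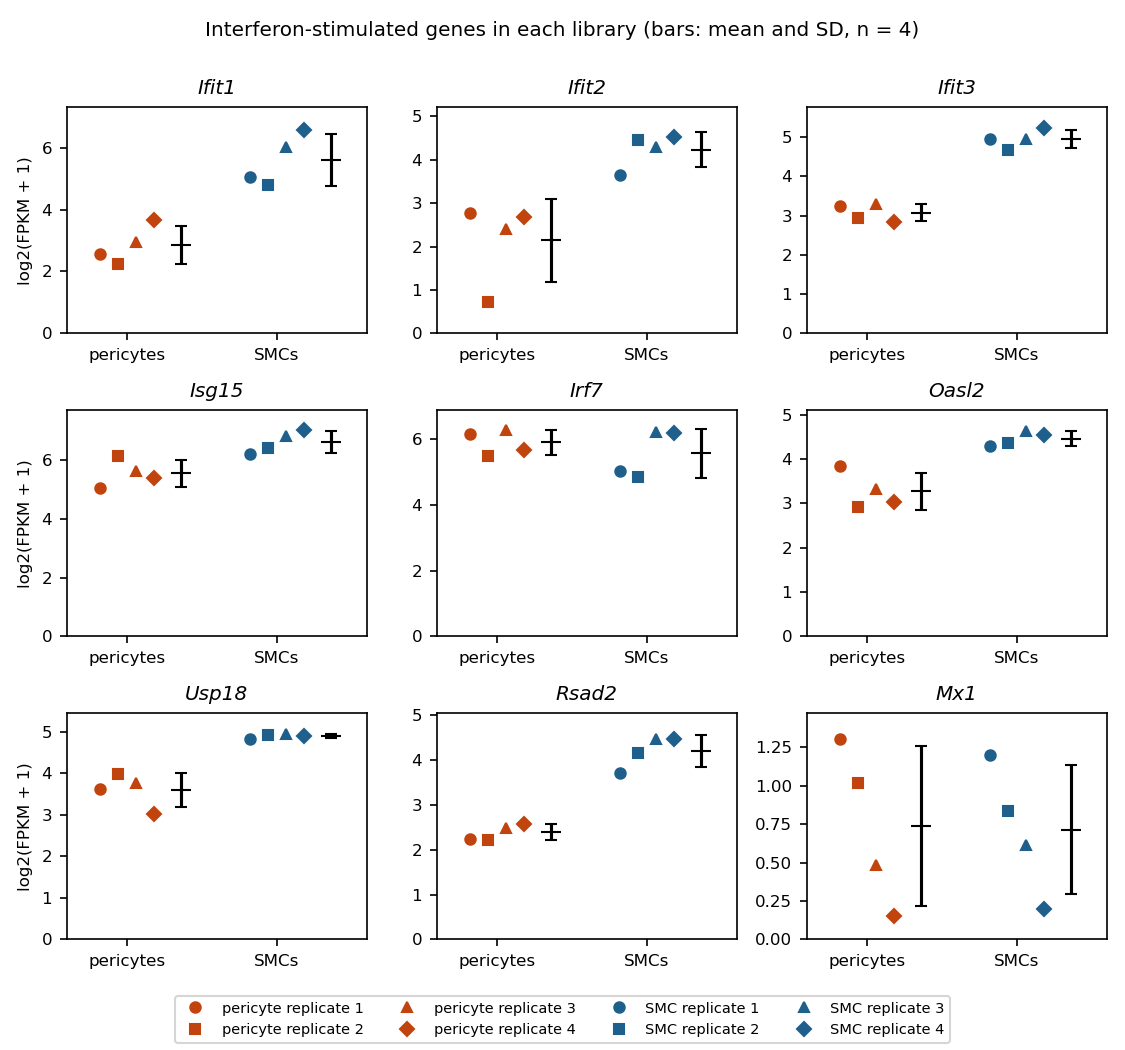
Level of each gene, as log2(FPKM + 1), in the 4 pericyte libraries (red) and the 4 SMC libraries (blue), with the mean and SD (n = 4) in black and 1 marker shape for each replicate number. For Ifit1, Ifit2, Ifit3, Isg15, Oasl2, Usp18 and Rsad2 all blue points lie above all red points, whereas Irf7 and Mx1 overlap.

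Ifit1, Ifit2 and Ifit3 encode tetratricopeptide repeat proteins that bind viral RNA or each other and hold back its translation. They lie in a cluster on chromosome 19 of NCBI Build 37. Ifit2 spans 34625184 to 34650909, Ifit3 spans 34658021 to 34663221, and Ifit1 spans 34715361 to 34724499, all on the plus strand. Ifit1 had 4.89, 3.71, 6.76 and 11.6 FPKM in pericyte replicates 1 to 4. It had 32.2, 26.5, 63.6 and 93.0 FPKM in SMC replicates 1 to 4. SMC replicates 3 and 4 had the highest Ifit1, and even the lowest SMC library was above all pericyte libraries. The group means were 6.74 FPKM (SD 3.47) and 53.8 FPKM (SD 30.8). A log2 fold change of -2.75, with a standard error (SE) of 0.47 (limma q = 0.00565), made Ifit1 the gene with the largest change of the 9.

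Ifit2 had 5.79, 0.661, 4.30 and 5.41 FPKM in pericyte replicates 1 to 4. In SMC replicates 1 to 4 it had 11.5, 21.0, 18.7 and 22.0 FPKM. Pericyte replicate 2 was well below the other pericyte libraries. The log2 fold change of Ifit2 was -2.08 (SE 0.47, limma q = 0.0188). Its q value rose to 0.0514, 0.0502 and 0.0522 when SMC replicates 2, 3 and 4 were left out in turn, so the call needed each of them. Without pericyte replicate 2 the log2 fold change was -1.61, and Ifit2 still passed.

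Ifit3 had 8.505, 6.64, 8.77 and 6.14 FPKM in pericyte replicates 1 to 4. The values in SMC replicates 1 to 4 were 29.9, 24.5, 30.1 and 36.3 FPKM. Both groups were tight and well apart, and the log2 fold change was -1.87 (SE 0.15, limma q = 0.000213), the smallest q value of the 9 genes. Ifit3 has a near copy between Ifit3 and Ifit1, I830012O16Rik (now Ifit3b), on the same strand. Their transcripts were 97.8% identical over an alignment of 1700 bases, with a whole Ifit3 transcript of 1745 bases, so reads could be shared and each value is uncertain. I830012O16Rik had 0.701 to 2.33 FPKM in pericytes and 7.17 to 10.4 FPKM in SMCs (log2 fold change -2.01, limma q = 0.000694). The closest other transcript to Ifit1 was Gm14446, a minus-strand gene of the same cluster, with 76.0% identity over 1371 bases. Gm14446 was higher in pericytes, at 1.09 to 3.805 FPKM against 0.229 to 0.571 FPKM in SMCs (log2 fold change 1.13, limma q = 0.0210). This q value was 0.0561, 0.0554, 0.0550 and 0.0513 without pericyte replicate 1 and without SMC replicates 1, 2 and 4. With TPM scaling it was 0.0618. The last gene of the cluster, 2010002M12Rik, had 0.0515 to 0.577 FPKM in pericytes and 0.219 to 0.746 FPKM in SMCs (limma q = 0.656). Gm14446 was thus the only gene of the cluster called higher in pericytes, at a low level and not in every setting. I830012O16Rik, Gm14446 and 2010002M12Rik were named after their values were seen.

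Rsad2, which encodes viperin, an enzyme that makes a chain-terminating nucleotide, lies on chromosome 12 from 27127618 to 27141317 on the minus strand. It had 3.74, 3.68, 4.63 and 4.996 FPKM in pericyte replicates 1 to 4. In SMC replicates 1 to 4 it had 12.2, 16.9, 21.2 and 21.2 FPKM. Rsad2 was about equally low in all pericyte libraries, and its log2 fold change was -1.82 (SE 0.19, limma q = 0.000575). Oasl2, a member of the oligoadenylate synthetase family, lies on chromosome 5 from 115346943 to 115362243 on the plus strand. Oasl2 had 13.4, 6.51, 8.96 and 7.14 FPKM in pericyte replicates 1 to 4. Its values in SMC replicates 1 to 4 were 18.5, 19.7, 23.9 and 22.3 FPKM. Pericyte replicate 1 was the closest to the SMC libraries and remained below all of them. The log2 fold change of Oasl2 was -1.18 (SE 0.21, limma q = 0.00645).

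Isg15 and Usp18 act on the same modification. Isg15 encodes a ubiquitin-like protein that is attached to other proteins, and Usp18 encodes the protease that removes it and that also dampens signaling at IFNAR2. Isg15 lies on chromosome 4 from 155573533 to 155574927 on the minus strand. It had 32.1, 69.4, 47.9 and 41.0 FPKM in pericyte replicates 1 to 4. In SMC replicates 1 to 4 it had 72.2, 84.5, 111 and 129.9 FPKM. The groups did not overlap, but the highest pericyte library (replicate 2) was close to the lowest SMC library (replicate 1). The log2 fold change of Isg15 was -1.07 (SE 0.27, limma q = 0.0300), the smallest of the 7 genes in size. Its q value was 0.0649, 0.0660 and 0.0734 without pericyte replicates 1, 3 and 4, and 0.0532, 0.0790 and 0.0736 without SMC replicates 2, 3 and 4. The call on Isg15 therefore rested on each of these 6 libraries.

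Usp18 lies on the plus strand of chromosome 6, from 121195924 to 121220934. Its FPKM were 11.4, 14.8, 12.6 and 7.20 in pericyte replicates 1 to 4. SMC replicates 1 to 4 had 27.5, 29.5, 29.9 and 29.1 FPKM. The SMC libraries were nearly the same, with a mean of 29.0 FPKM (SD 1.04). The log2 fold change of Usp18 was -1.30 (SE 0.19, limma q = 0.00288).

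Irf7 encodes the transcription factor that drives interferon alpha genes, and plasmacytoid dendritic cells are known to hold it at a high level without infection. The gene lies on chromosome 7 from 148448605 to 148452380 on the minus strand and overlaps Phrf1 on the other strand by 45 bases. Irf7 had 70.7, 44.1, 76.7 and 50.1 FPKM in pericyte replicates 1 to 4. In SMC replicates 1 to 4 it had 31.6, 27.5, 72.7 and 72.0 FPKM. SMC replicates 1 and 2 were below all pericyte libraries, and SMC replicates 3 and 4 lay among the higher pericyte libraries. The log2 fold change was 0.34, with a 95% interval from -0.55 to 1.23 (limma q = 0.621). This interval leaves room for a difference of more than 1 log2 unit in favor of pericytes. It does not reach the log2 fold change of any of the 7 genes that were higher in SMCs.

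Mx1 encodes a dynamin-like GTPase that blocks influenza virus, and many laboratory mouse strains carry a disrupted copy. It lies on chromosome 16 from 97668642 to 97684514 on the minus strand. Mx1 had 1.47, 1.02, 0.401 and 0.110 FPKM in pericyte replicates 1 to 4. Its values in SMC replicates 1 to 4 were 1.30, 0.784, 0.534 and 0.149 FPKM. In both groups replicate 1 was highest and replicate 4 was lowest, so that replicates of a group differed more than the groups did. The log2 fold change was 0.03, with a 95% interval from -0.70 to 0.75 (limma q = 0.969). Mx2 shares 94.8% of 920 aligned bases with Mx1, so reads could also be shared there. Mx2 was higher in every SMC library, at 5.06 to 6.71 FPKM against 0.363 to 1.80 FPKM in pericytes (log2 fold change -1.68, limma q = 0.00214), and was named after its values were seen.

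**Figure D3:**
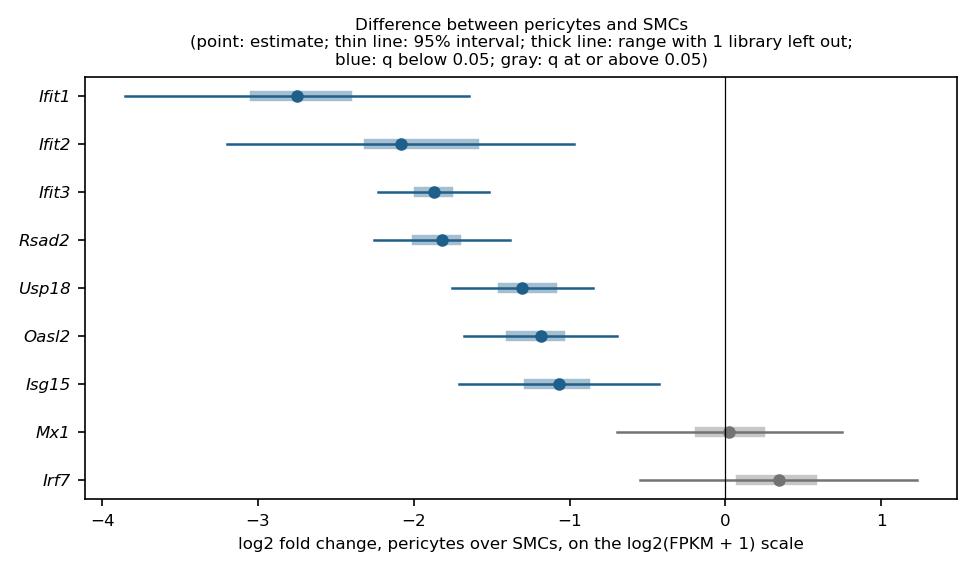
Log2 fold change of each gene, pericytes over SMCs, on the log2(FPKM + 1) scale (limma), with the 95% interval (thin line) and the range when each of the 8 libraries is left out in turn (thick line). Ifit1 is farthest from 0 at -2.75, and Irf7 and Mx1 are the genes whose intervals include 0.

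FPKM are scaled to transcript length, so levels can be set side by side between genes. In SMCs the order of mean FPKM was Isg15 (99.5), Ifit1 (53.8), Irf7 (50.9), Ifit3 (30.2), Usp18 (29.0), Oasl2 (21.1), Ifit2 (18.3), Rsad2 (17.9) and Mx1 (0.692). Neighbours in this order overlapped in their library values, other than Usp18 and Oasl2, and Rsad2 and Mx1. In pericytes the order was Irf7 (60.4), Isg15 (47.6), Usp18 (11.5), Oasl2 (8.997), Ifit3 (7.51), Ifit1 (6.74), Rsad2 (4.26), Ifit2 (4.04) and Mx1 (0.752). Here only Isg15 and Usp18 were neighbours without overlap. Ifit1 was thus second in SMCs and sixth in pericytes.

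The mean of log2(FPKM + 1) over the 9 genes was between 3.08 and 3.42 in pericyte libraries and between 4.32 and 4.85 in SMC libraries. SMC replicates 1 and 2 had 4.32 and 4.39, and SMC replicates 3 and 4 had 4.77 and 4.85. Pericyte replicate 2 was the lowest library. Within groups, the genes did not all vary together. Over the deviations of the 8 libraries from their group means, Ifit1 and Rsad2 had a Pearson correlation of 0.797, and Ifit3 and Irf7 had 0.778. Mx1 varied against Ifit1 (-0.842) and Rsad2 (-0.846). Among 13604 other genes whose mean reached 1 FPKM, the deviations most like the mean deviation of the 9 genes were those of Ebf1 (0.988), Neurl3 (0.979), Efna5 (0.978), Zfp64 (0.978) and Ipo13 (0.978). These correlations describe 8 libraries that share depth and scaling. Over 13612 genes, the deviations of pericyte and SMC libraries correlated positively within replicates 1 and 2 and within replicates 3 and 4 (0.0794 to 0.538). Between these sets of replicates all correlations were negative (-0.451 to -0.102). The part of this split, common to many genes, in the correlations of single genes was not tested. Of these 5 genes, Neurl3 was higher in pericytes, at 58.2 to 81.7 FPKM against 8.15 to 14.5 FPKM in SMCs (log2 fold change 2.59, limma q = 0.000270). Zfp64 was higher in pericytes by 0.67 log2 units (limma q = 0.0451), with a q value between 0.0539 and 0.111 when a library other than SMC replicates 3 and 4 was left out. Ebf1, Efna5 and Ipo13 did not pass the test (limma q = 0.758, 0.0789 and 0.721).

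The labelled cell types were checked against markers, because the levels above are averages over all sorted cells. Pericyte markers (Rgs5, Kcnj8, Abcc9, Cspg4, Pdgfrb, Anpep and Notch3) summed to 27.0 to 86.4 FPKM in pericyte libraries and 65.9 to 286 FPKM in SMC libraries. All 7 had a lower mean log2 level in pericytes, and Rgs5 passed the test (limma q = 0.0240, or 0.0538, 0.0656 and 0.0529 without pericyte replicate 1, SMC replicate 3 and SMC replicate 4). At an unadjusted limma p below 0.05, 4 of the 7 were higher in SMCs and 0 were higher in pericytes. The markers thus did not single out the pericyte libraries and were lower there. SMC markers (6 genes) summed to 532 to 1845 FPKM in pericytes and 1692 to 5326 FPKM in SMCs, and 0 of the 6 passed the limma test (3 were higher in SMCs at an unadjusted p below 0.05).

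Markers of several other cell types moved with the groups. All 5 T cell markers were higher in pericytes, where they summed to 1436 to 2310 FPKM against 18.6 to 32.2 FPKM in SMCs. All 4 B cell markers were higher in pericytes too, at 759 to 1964 FPKM against 8.77 to 30.0 FPKM. All 4 markers of plasmacytoid dendritic cells were higher in pericytes, at 181 to 315 FPKM against 8.36 to 24.2 FPKM. In the other direction, 4 of 5 endothelial markers were higher in SMCs. All 5 summed to 204 to 623 FPKM in SMCs and 45.2 to 89.4 FPKM in pericytes. Of 5 fibroblast markers, 4 were higher in SMCs. The other, Dcn, was listed at 0 in all 4 SMC libraries against 509 to 1165 FPKM in pericytes. With Dcn included, the 5 summed to 2675 to 3172 FPKM in SMCs and 702 to 1481 FPKM in pericytes. Of 6 macrophage and monocyte markers, 1 was higher in each group, and the sums overlapped (1597 to 3774 FPKM in pericytes and 1073 to 1706 FPKM in SMCs). Sums of neutrophil, Schwann cell and skeletal muscle fiber markers also overlapped. No other marker in these lists was at 0 in a whole group. Markers of hematopoietic and endothelial cells were thus measured in libraries whose gate was set to exclude CD45+ and CD31+ cells. The part of these cells in the levels of the 9 genes was not tested. In bulk RNA, fewer cells that express a gene and less RNA per cell cannot be told apart.

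**Figure D4:**
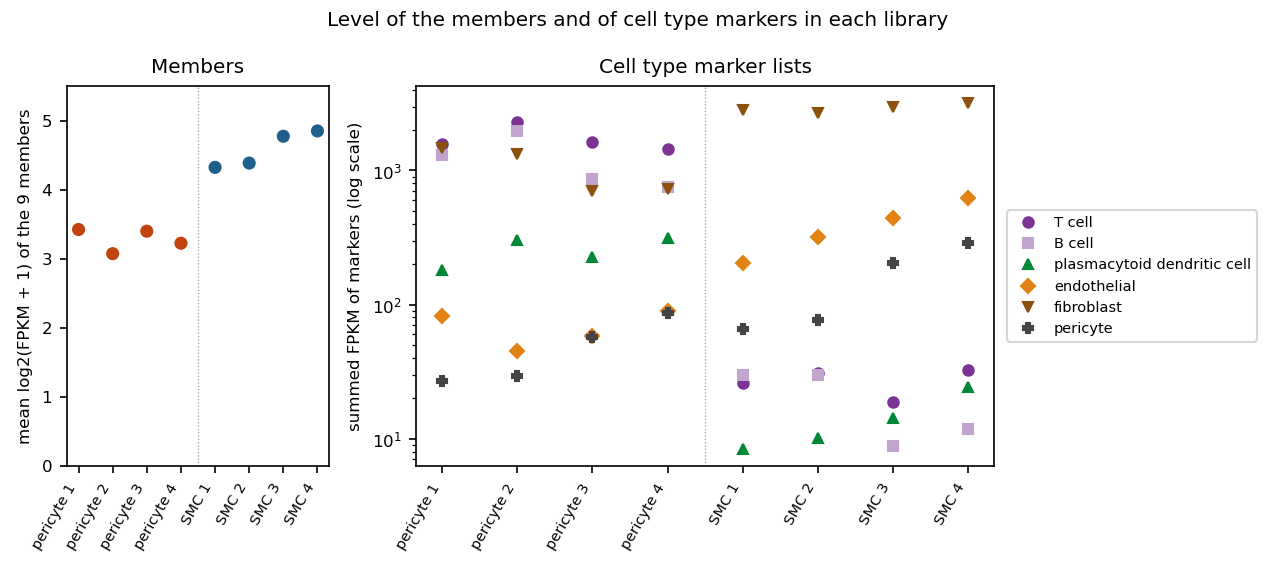
Left, mean log2(FPKM + 1) of the 9 genes in each library (pericytes red, SMCs blue). Right, summed FPKM of cell type marker lists in each library, on a log axis, in which T cell, B cell and plasmacytoid dendritic cell markers are high in the 4 pericyte libraries and endothelial and fibroblast markers are high in the 4 SMC libraries.

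The rest of the interferon pathway was followed through 9 lists with 105 genes, of which 103 were in the table and 101 were above 0 in at least 1 library. Of these 101 genes, 27 (26.7%) were higher in SMCs while 24 (23.8%) were higher in pericytes, with a median log2 fold change of -0.12. The shares over all genes tested were 11.2% and 10.6%, against which the counts for each list below are also to be read. In the lists of receptors, of kinases and ISGF3 subunits and of negative regulators, the genes that passed were all higher in pericytes. Among genes induced by interferon gamma, those that passed were all higher in SMCs. With TPM scaling, the number higher in pericytes fell from 24 to 13, whereas 28 were higher in SMCs. Among the genes named below, Ifngr2, Jak1, Jak2, Irf2, Ptpn2 and Ifih1 then did not pass (limma q = 0.317, 0.235, 0.0763, 0.0735, 0.321 and 0.0510), nor did Ifnar1.

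**Figure D5:**
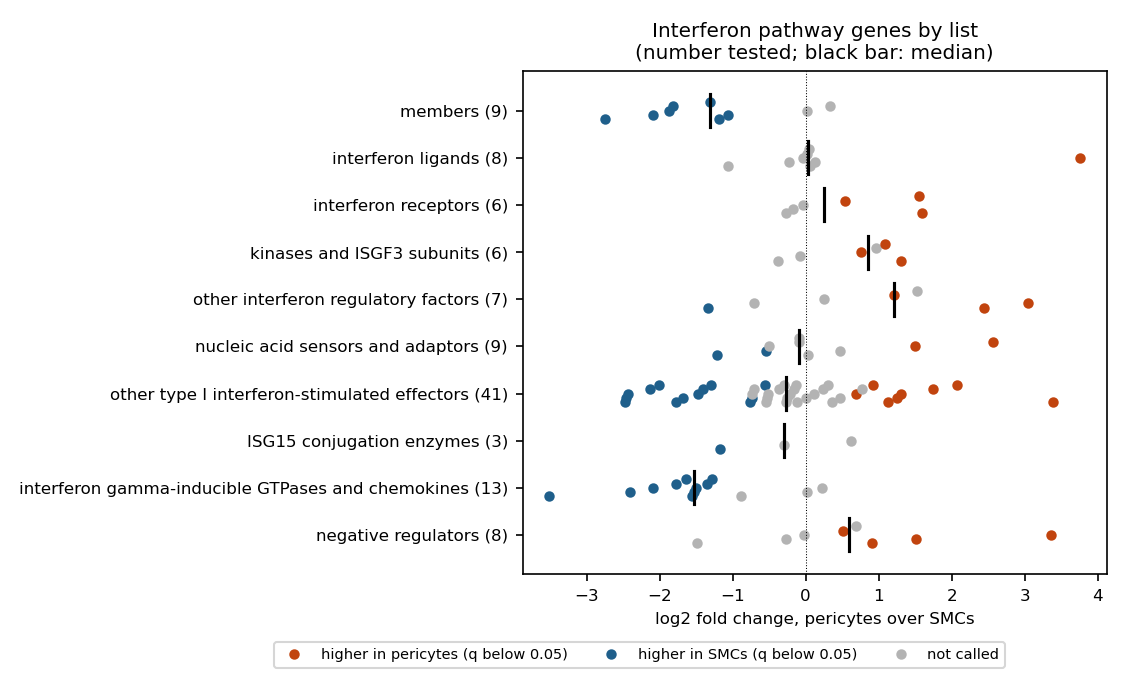
Log2 fold change, pericytes over SMCs, of every tested gene in the 9 named genes (members) and the 9 pathway lists, with the median of each list as a black bar. Blue points (higher in SMCs) fill the list of genes induced by interferon gamma, where 10 of 13 passed, and red points (higher in pericytes) lie in the lists of receptors, kinases and negative regulators.

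Of the interferon ligands, Ifng was higher in pericytes, at 17.5 FPKM (SD 5.73) against 0.327 FPKM (SD 0.266) in SMCs (log2 fold change 3.77, limma q = 0.000111). Ifng is made by activated T cells and natural killer cells. The other 7 ligand genes tested did not pass, and Il28a and Il28b were listed at 0 in all 8 libraries. Ifnb1, which encodes interferon beta, had 4.08 and 3.86 FPKM in SMC replicates 1 and 2 and at most 0.615 FPKM in each of the other 6 libraries (limma q = 0.185). These SMC replicates were the lower SMC libraries for Ifit1 and Irf7. Ifnb1 was named after its values were seen.

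Of 6 receptor genes, 3 were higher in pericytes. Ifnar1 had 86.3 FPKM (SD 29.6) in pericytes against 27.6 FPKM (SD 5.85) in SMCs (log2 fold change 1.55, limma q = 0.00960, or 0.0794 with TPM scaling). Ifnar2, its partner, had 116 FPKM (SD 29.7) in pericytes against 138 FPKM (SD 16.5) in SMCs and did not pass (log2 fold change -0.27, limma q = 0.377). Ifnar2 was higher in SMCs without pericyte replicate 2 (limma q = 0.0495) and with TPM scaling (log2 fold change -0.51, limma q = 0.00915). Ifngr1, the ligand-binding chain of the interferon gamma receptor, was higher in pericytes, at 684 FPKM (SD 102) against 232 FPKM (SD 70.0) in SMCs (limma q = 0.00245). Ifngr2 was higher by 0.54 log2 units (limma q = 0.0201), with q values of 0.0517, 0.0536 and 0.0568 without pericyte replicate 3, pericyte replicate 4 and SMC replicate 2.

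Among kinases and ISGF3 subunits, Jak1 and Jak2 were higher in pericytes. Stat2 and Irf9, subunits of ISGF3, did not pass. Stat2 had 8.17 FPKM (SD 3.82) in pericytes against 10.4 FPKM (SD 4.25) in SMCs (limma q = 0.655), and Irf9 had 43.9 FPKM (SD 11.1) and 45.5 FPKM (SD 2.51) (limma q = 0.792). Jak2 was higher in pericytes by 0.76 log2 units (limma q = 0.00155). Jak1 was higher by 1.31 log2 units (limma q = 0.0466), but its groups overlapped and its q value was between 0.0618 and 0.115 without any 1 library other than pericyte replicate 2. Without pericyte replicate 2 the q value of Jak1 was 0.00218.

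Of the other interferon regulatory factors, Irf1, which interferon gamma induces, was higher in SMCs. Irf1 had 737 FPKM (SD 53.8) in SMCs against 294 FPKM (SD 41.5) in pericytes (log2 fold change -1.33, limma q = 0.000298). Irf4, a factor of activated lymphocytes and plasma cells, was higher in pericytes by 3.05 log2 units (limma q = 5.46e-05). Irf5 was higher in pericytes by 2.44 log2 units (limma q = 0.00848), and Irf2, a repressor of Irf1 targets, was higher by 1.21 log2 units (limma q = 0.0133). Irf3 did not pass (limma q = 0.354). Irf8, a factor of dendritic cells and B cells, had a log2 fold change of 1.52 and lay at the threshold (limma q = 0.0515). It passed without pericyte replicate 2 (limma q = 0.0257) and without SMC replicate 4 (limma q = 0.0485), and was named after its values were seen.

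Nucleic acid sensors and their adaptors, which start interferon production, were divided. Ikbke, a kinase that activates IRF3 and IRF7, was higher in pericytes by 2.57 log2 units (limma q = 0.00131), and Zbp1, a sensor of Z-form nucleic acids, had 29.1 FPKM (SD 12.1) in pericytes and 9.38 FPKM (SD 3.01) in SMCs (limma q = 0.0136). Ifih1, which encodes the RNA sensor MDA5, was higher in SMCs (log2 fold change -1.22, limma q = 0.0368), as was Tmem173, which encodes STING (log2 fold change -0.54, limma q = 0.0432). The q value of Ifih1 was between 0.0501 and 0.0852 without pericyte replicate 1, 2 or 4 or SMC replicate 2, 3 or 4. That of Tmem173 was between 0.0674 and 0.107 without any 1 library other than pericyte replicate 2. The other 5 of 9 genes in this list did not pass.

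Of 41 other genes stimulated by type I interferon, 13 were higher in SMCs, 8 were higher in pericytes and 20 did not pass. Ifitm3, a membrane protein that blocks virus entry, had 3028 FPKM (SD 278) in SMCs against 594 FPKM (SD 297) in pericytes (log2 fold change -2.46, limma q = 0.00120). Slfn5 (log2 fold change -2.47, limma q = 0.00326) and Ifi204 (log2 fold change -2.43, limma q = 0.000355) were also higher in SMCs. Epsti1 was higher in pericytes, at 71.6 FPKM (SD 11.7) against 5.90 FPKM (SD 0.885) in SMCs (log2 fold change 3.39, limma q = 1.43e-05). Hence genes of this list did not move in a single direction. Of the enzymes that attach ISG15 to proteins, Ube2l6 was higher in SMCs (log2 fold change -1.17, limma q = 0.0158), in the same direction as Isg15 and Usp18, and Uba7 and Herc6 did not pass.

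Of 13 GTPases and chemokines induced by interferon gamma, 10 were higher in SMCs, and the median log2 fold change was -1.53. Iigp1, a GTPase that attacks the vacuoles of parasites, had 287 FPKM (SD 116) in SMCs against 24.3 FPKM (SD 10.8) in pericytes (log2 fold change -3.51, limma q = 0.00115). Cxcl9 (log2 fold change -2.41, limma q = 0.000630) and Cxcl10 (log2 fold change -2.09, limma q = 0.00243), chemokines that attract T cells, were higher in SMCs, as was Gbp2 (log2 fold change -1.78, limma q = 0.00166). Ifng itself had the opposite direction, as given above. Of 8 negative regulators, 4 were higher in pericytes. Ptpn6, a phosphatase of blood cells also called SHP-1, was higher by 3.36 log2 units (limma q = 6.03e-05). Samhd1 was higher by 1.51 log2 units (limma q = 0.000363) and Pias1 by 0.91 log2 units (limma q = 0.00197). Ptpn2 was higher by 0.51 log2 units (limma q = 0.0325), and its q value was between 0.0593 and 0.0759 without any 1 library other than pericyte replicate 3 and SMC replicate 4.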

How the data were processed

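Pericytes and SMCs were each sequenced in 4 libraries, grouped by the sample titles. The authors reverse transcribed and amplified RNA with a SMART-Seq ultra-low input kit, built Nextera XT libraries, and aligned with Bowtie2 and TopHat to NCBI Build 37 of the mouse. They deposited FPKM for each gene and library, neither log transformed nor filtered. The program that computed FPKM and any use of strand are not given in the sources used here.

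The read number behind an FPKM value is unknown, and no interval for counting error can be given. Relative depth, estimated from values under 0.3 FPKM, was between 0.851 (pericyte replicate 2) and 1.07. FPKM summed to 690247 to 1190440 in pericytes, highest in pericyte replicate 2, and 656405 to 737839 in SMCs.

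Values were taken as log2(FPKM + 1) and compared with limma 3.58.1 in R 4.3.3, with Benjamini-Hochberg adjustment (q value) over 27414 genes above 0 FPKM in at least 1 library. All 8 libraries entered the fit without a covariate. Replicates were pools of sorts, and whether they share animals is not stated, so p-values measure only the spread between these libraries. The test was checked on simulated data for this comparison (27414 genes). There, 36 of 50 genes lower by 2 log2 units, 27 of 50 higher by 2, 12 of 50 higher by 1 and 11 of 27214 unchanged genes were called. Only genes with a mean log2(FPKM + 1) above 2 were given a change, and they were far fewer than the 5977 called in the data. The shares recovered may therefore differ from those in the data.

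Alternatives tried were another pseudocount (0.1), testing only genes that reached 1 FPKM in 4 or more libraries, testing all listed genes, other scalings (median-ratio, quantile and TPM), a block for the replicate number, replicates 1 and 2 against 3 and 4 as a covariate, an intensity trend, and each library left out in turn. The 9 genes, the pathway lists and the marker lists were chosen with earlier results of these data known. Named were the 9 genes, up to 4 genes with the largest change among those that passed in each list, Ifnar1, Ifnar2, Stat2 and Irf9, and the 5 genes most alike. Some genes that this rule or these lists hold are not reported here. Ifi27 and Ifi44l were not matched by symbol. Gene positions came from GENCODE M1, which holds 37195 of the 37979 identifiers. Near copies were found with blastn. Promoter sequences came from RefSeq (GRCm38.p6). Python 3.11.15 with pandas 2.3.3, numpy 2.4.6, scipy 1.17.1 and matplotlib 3.10.9 was used for tables and plots.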

Additional observations from a re-analysis of the deposited data

Results flagged for a closer look

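Each of 40 genes was checked for a library far from the other 3 of its group, on the log2(FPKM + 1) scale. Chance alone marks about 1 in 20 groups of 4, and 7 of 80 were marked. Of these, 3 were low values in pericyte replicate 2, the library with the largest FPKM sum. There Stat2 had 2.54 FPKM, Jak1 had 104.8 FPKM and Ikbke had 8.19 FPKM, each the lowest of 4. Ikbke was also lowest in SMC replicate 2, at 1.52 FPKM. Among high values, Ifngr1 had 836 FPKM in pericyte replicate 3, Gbp2 had 23.2 FPKM in pericyte replicate 4, and Epsti1 had 7.22 FPKM in SMC replicate 4. None of the 9 interferon-stimulated genes was marked in either group.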

How the results depend on the processing

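The count of 7 of the 9 genes higher in SMCs ranged from 5 to 7 as single libraries were left out, and 0 were higher in pericytes in every setting run. Ifit1, Ifit3, Oasl2, Usp18 and Rsad2 passed in every setting. Isg15 did not pass with all listed genes tested (limma q = 0.0657). The median log2 fold change of the 9 genes was -1.30 and moved to -1.56 when only genes reaching 1 FPKM in 4 or more libraries were tested, which drops Mx1, and to -1.53 with TPM scaling. It lay between -1.43 and -1.11 with each library left out. TPM scaling gave 13 pathway genes higher in pericytes in place of 24, and shifted the median log2 fold change of the 13612 genes whose mean reached 1 FPKM from 0.05 to -0.15. With each library left out, 17 to 26 pathway genes were higher in pericytes and 22 to 29 were higher in SMCs. Libraries of the same number had deviations with a correlation across genes of 0.327 on average (range 0.0794 to 0.474 over 4 pairs), and 2 of 4 pericyte libraries correlated best with their own number, so the numbers were not taken as pairs. With the replicate block, 6 of the 9 genes were higher in SMCs, without Ifit2 (limma q = 0.0537), and 19 and 26 pathway genes were higher in pericytes and SMCs. Under the block, Jak1, Ifih1, Tmem173, Ifngr2 and Ptpn2 did not pass, and Irf8 did (limma q = 0.00584). The count of the 9 genes past a log2 fold change of 2 was 1 with the block, 1 or 2 with each library left out, 3 with a pseudocount of 0.1 and 4 with TPM scaling. Irf8 also passed with the filter (limma q = 0.0145), the covariate (0.00238), the trend (0.0378) and the pseudocount of 0.1 (0.0454). With SMC replicate 2, 3 or 4 left out, the count of the 9 genes was 5. The number of reads behind the lowest gene, Mx1, is unknown.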
